A study of Mus musculus with 4 samples.

Results

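Chemokines and their receptors were examined in liver RNA of mice that had received a short-chain fatty acid through the cecum. The genes were taken by name: probe sets with a single symbol beginning with Ccl, Cxcl, Cx3cl, Xcl, Ccr, Cxcr, Cx3cr, Xcr or Ackr and a digit, together with Ppbp and Pf4, averaged per symbol. The rule found 57 genes among the 18820 measured, of which 36 encode ligands and 21 receptors. All 57 matched a RefSeq gene by Entrez ID, and Cxcl11 is listed there as a transcribed pseudogene in this strain's reference.

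The 4 groups were an acetate, a propionate, a butyrate and a control pool, each measured on 1 array. All mice were male C57Bl/6J, aged 16 to 17 weeks, with a permanent catheter in the cecum and 6 weeks on a semi-synthetic diet with palm oil. Over 6 h, conscious mice received one sodium salt, [1-13C]acetate, [2-13C]propionate or [2,4-13C2]butyrate, as a 0.3 M solution at 0.2 ml/h (2.4 mmol/h/kg), and control mice received phosphate-buffered saline. RNA of 6 acetate, 6 propionate, 4 butyrate and 6 control mice was pooled, so a single liver weighed more in the butyrate pool. With 1 array per group there is no replicate check, and no p-value, SD or standard error is given for any difference.

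Chemokines are small secreted proteins that steer leukocytes along gradients bound to vessel walls and matrix, and are classed by the spacing of their first cysteines. Their receptors are coupled to G proteins on leukocytes, while the atypical receptors bind ligands without such signalling and act as scavengers. In liver, resident macrophages (Kupffer cells), sinusoidal endothelium, hepatocytes and stellate cells can secrete them, and the receptors are carried mostly by leukocytes. The arrays measured whole tissue, in which more cells of a type and more RNA per cell cannot be told apart.

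Values are log2 expression after RMA, a method that removes background and makes the arrays' distributions alike. A level floor was set at 5.55 on this scale, the median over all genes of their mean over the 4 pools. At or above it lay 14 of the 57 genes, namely 13 ligands and the receptor Ccr7, against 50% of all genes by construction. Each of the 14 was above the floor in all 4 pools. Of the other 43 genes, 41 were below the floor in every pool, while Cxcl11 and Cxcr4 reached it in the butyrate pool alone. The floor is a median level and not a measured background. Values below it are weaker signals and are described with that limit. Brightness differs between probe sets for reasons other than RNA amount, so a level is not compared between genes as an amount of RNA. The summed level of a marker list is weighted towards its brightest probe sets for the same reason, and is compared between pools only.

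With butyrate, 6 of the 14 genes stood at least 1.5-fold (0.58 on the log2 scale) above control and 0 stood as far below. Over the 9410 genes at or above the floor, 0.755% were that far above control and 0.361% that far below. The 6 were Cxcl13, Cxcl9, Cxcl10, Ccl5, Cxcl1 and Ppbp. Measured against the mean of the other 3 pools, 4 of the 14 passed, without Ccl5 (0.56) and Cxcl1 (0.21). The median log2 ratio of the 14 genes to control was 0.46, against -0.0036 for all genes at or above the floor. By any amount, 12 of the 14 lay above control, as did 48.7% of the 9410 genes. Over all 57 genes 7 were at least 1.5-fold above control, Ccl3 being added, and 0 below, where the shares of all 18820 genes were 0.728% and 0.616%. The median over the 57 was 0.11.

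With propionate, 3 of the 14 genes stood at least 1.5-fold above control, Cxcl1, Cxcl9 and Ccl5, where the share over all genes at or above the floor was 0.701%. None was that far below, where the share was 0.404%. Their median log2 ratio was 0.22, against -0.034 for all genes at or above the floor. Ccl5 lay at the threshold itself, at 1.5-fold, and Ccr7 just under it at 1.49-fold. By any amount, 11 of the 14 lay above control, as did 39.2% of the 9410 genes. Over all 57 genes 5 were at least 1.5-fold above control, Ccl3 and Ccl2 being added, and 0 below, where the shares of all 18820 genes were 0.776% and 0.489%. The median over the 57 was 0.054. Measured against the mean of the other 3 pools, 0 of the 14 genes passed with propionate.

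With acetate, 0 of the 14 genes stood at least 1.5-fold above control, where the share of the 9410 genes at or above the floor was 0.627%. Ppbp alone stood as far below, where the share was 0.51%. The median log2 ratio was 0.13, against -0.011 for all genes at or above the floor. Its sign depended on the denominator, the median being -0.085 against the mean of the other 3 pools and -0.041 against the mean of propionate and control. By any amount, 10 of the 14 lay above control, as did 46.2% of the 9410 genes. Over all 57 genes the counts stayed at 0 above and 1 below, where the shares of all 18820 genes were 0.696% and 0.494%. By any amount, 34, 36 and 40 of all 57 genes lay above control with acetate, propionate and butyrate, as did 50.5%, 47.8% and 49% of the 18820 genes. The 3 comparisons share the control pool, so a low value there raises all 3 ratios of a gene together. Control was the lowest of the 4 pools for 8 of the 14 genes and for 19.1% of all genes at or above the floor. Butyrate was the highest pool for 8 of the 14, against 30.3% of all such genes.

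**Figure D1:**
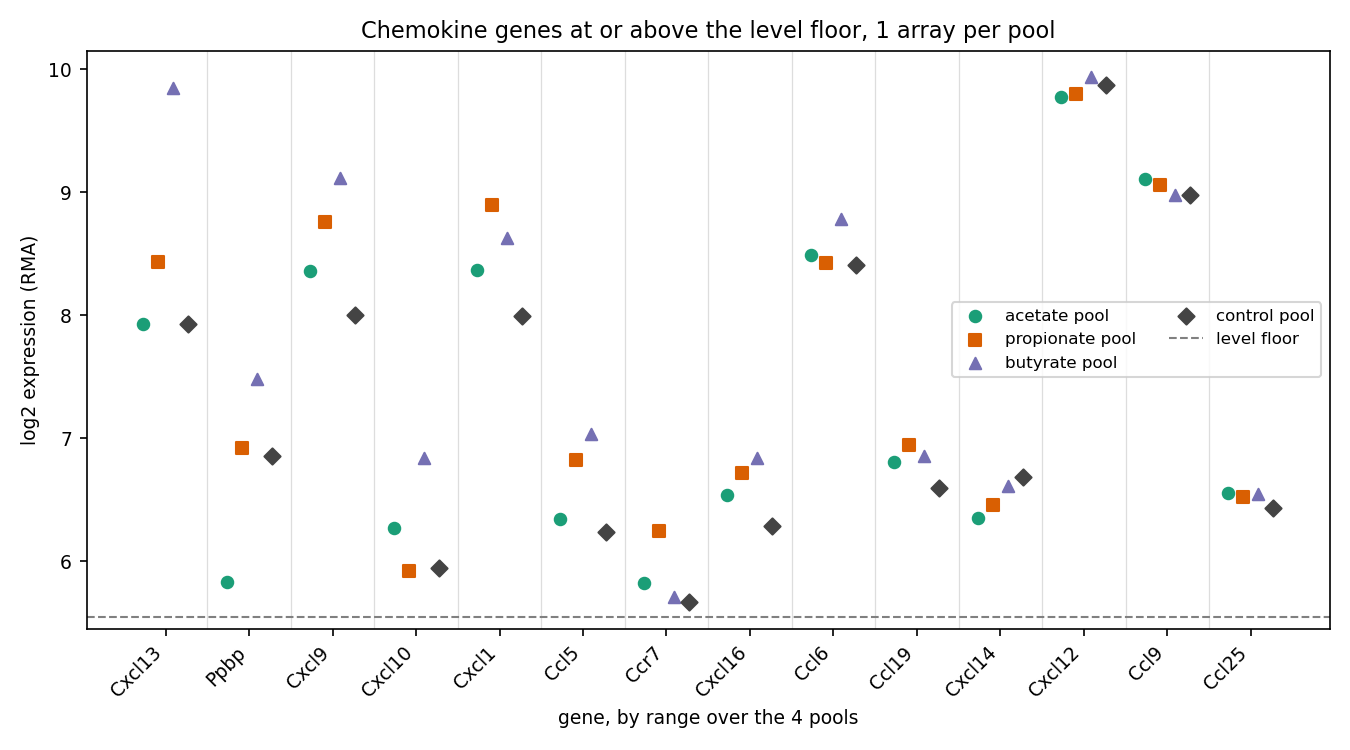
Points give the log2 expression (RMA) of the 14 better detected genes in each pool, 1 array per pool, with genes ordered along the axis by their range over the pools. Cxcl13 spans the widest range, with the butyrate pool at 9.85 and the control pool at 7.93, and Ppbp is the gene whose acetate pool lies far below the others.

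**Figure D2:**
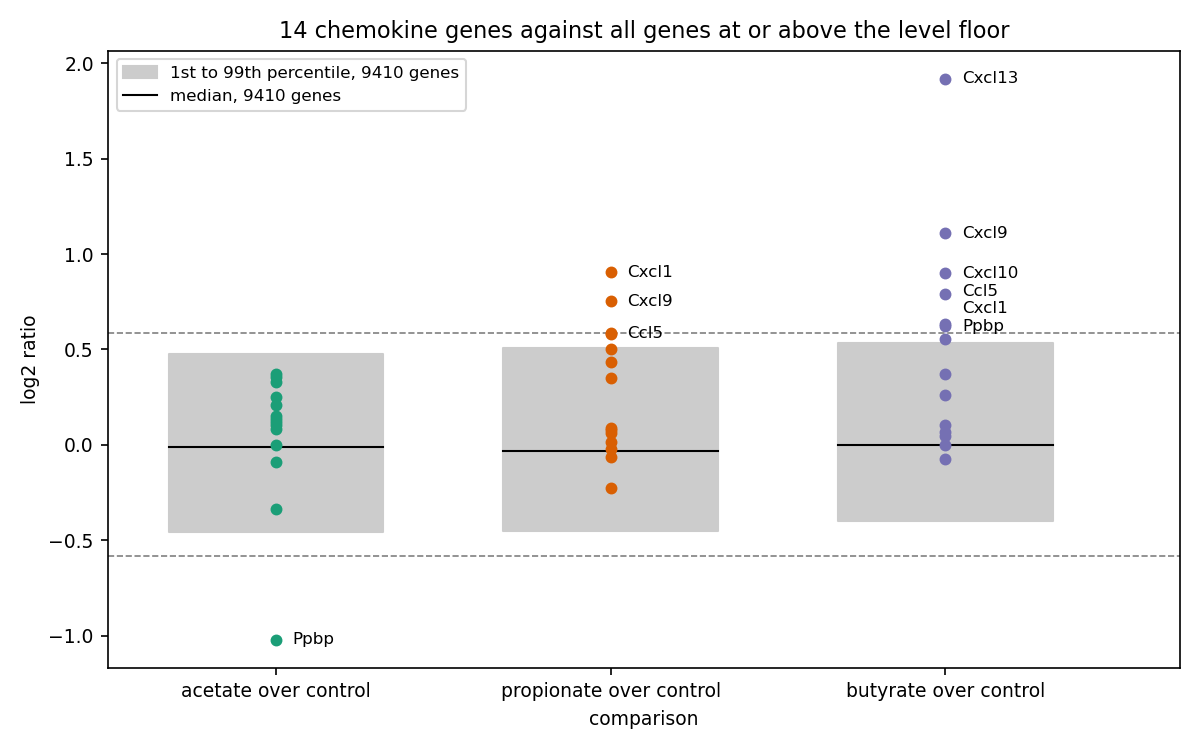
Points give the log2 ratio to control of the same 14 genes in each acid pool, over a grey band from the 1st to the 99th percentile of all 9410 genes at or above the floor and a black line at their median. Dashed lines mark 1.5-fold, and the labelled genes are those beyond them, with Cxcl13 at 1.92 the highest and Ppbp at -1.02 the lowest.

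Cxcl9 and Cxcl10 are induced by interferons and attract T and NK cells through Cxcr3. Cxcl9 stood at 8.36 in the acetate, 8.76 in the propionate and 9.11 in the butyrate pool, and at 8.00 in the control pool. All 3 acid pools were above control, by 1.28-fold, 1.68-fold and 2.16-fold, and the butyrate ratio ranked 10 among 9410 genes. Cxcl10 stood at 6.27 with acetate, 5.92 with propionate and 6.84 with butyrate, against 5.94 in control. Its butyrate level was 1.87-fold above control, while the propionate level was close to control at a log2 ratio of -0.02. Cxcl9 and Cxcl10 thus differed in the propionate pool, where Cxcl9 was the higher by 0.75 and Cxcl10 was not.

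Cxcl11 and the receptor Cxcr3 lay below the floor on average. Cxcl11 was at 5.29, 5.42 and 5.89 with acetate, propionate and butyrate, against 5.54 in control. Cxcr3 was at 4.48, 4.87 and 5.18 in the same acid pools, against 4.83 in control. All 4 genes of this group had their highest level with butyrate, 2 of them by at least 1.5-fold, with ratios from 0.35 to 1.11.

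The promoter stretches of these ligands and of the other strongly differing genes at hand are shown so that the letters upstream of each can be compared. Each is the 250 bases before the RefSeq start of the gene (build GRCm38.p6), outside the transcript and read on the gene's own strand. Capitals mark matches to GGG and CC with 5 bases between them, a shape found in sites of NF-kB (the factor that drives many inflammatory genes), or to a pair of GAAA with 2 bases between them, a shape of interferon response elements, each on either strand, with overlapping matches run together. Cxcl9 lies at chr5:92328080-92328329 and Cxcl10 at chr5:92348890-92349139, both on the minus strand.
Cxcl9: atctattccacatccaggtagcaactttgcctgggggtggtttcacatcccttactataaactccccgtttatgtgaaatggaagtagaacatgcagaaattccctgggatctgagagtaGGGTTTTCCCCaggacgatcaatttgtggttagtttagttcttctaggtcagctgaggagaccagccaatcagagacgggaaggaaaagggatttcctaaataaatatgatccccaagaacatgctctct
Cxcl10: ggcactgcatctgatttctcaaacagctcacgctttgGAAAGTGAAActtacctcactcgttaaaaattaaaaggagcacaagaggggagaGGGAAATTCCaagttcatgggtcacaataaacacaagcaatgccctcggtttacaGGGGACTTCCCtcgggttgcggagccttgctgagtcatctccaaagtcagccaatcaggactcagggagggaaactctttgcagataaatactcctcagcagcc
Of the shapes searched for, the stretch of Cxcl10 holds the interferon-type letters and the NF-kB-type letters, and that of Cxcl9 the NF-kB-type letters alone. The interferon-type letters occur in 2.98% of 32851 such stretches and the NF-kB-type letters in 45.8%, so a match to the second is common. Among the 43 genes of the family with a sequence at hand, 24 hold the NF-kB-type letters and 3 the interferon-type letters, which are Ccl19, Cxcl10 and Cxcl14. A match describes letters and is no evidence of binding. No other shapes were searched for, so the lack of a match does not show that a stretch has no interferon or NF-kB site.

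Cxcl13, Ccl19 and Ccr7 organise lymphoid tissue: Cxcl13 draws B cells through Cxcr5, and Ccl19 draws T cells and dendritic cells through Ccr7. Cxcl13 stood at 7.93 in the acetate, 8.43 in the propionate and 9.85 in the butyrate pool, and at 7.93 in the control pool. The acetate and control pools were alike, propionate was 1.41-fold above control and butyrate 3.78-fold, a ratio ranked 4 among 9410 genes. Ahead of it ranked the intestinal epithelium markers Muc2 and Lypd8, at log2 ratios of 2.98 and 2.97, and the neutrophil granule gene Ngp, at 2.75. Whether other tissue or cells in the butyrate pool had a part in the Cxcl13 value was not tested. The Cxcl13 receptor Cxcr5 lay below the floor throughout, at 3.41, 3.29 and 3.29 with acetate, propionate and butyrate, against 3.70 in control.

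Ccl19 stood at 6.80, 6.94 and 6.85 with acetate, propionate and butyrate, against 6.59 in control, so no acid pool was more than 1.28-fold above it. Its 5 probe sets gave nearly the same values, some of them identical. Ccr7 stood at 5.82, 6.24 and 5.71 in the acid pools, against 5.67 in control, so propionate alone stood apart, by 0.58 on the log2 scale. Of the 8 B and plasma cell markers measured, 5 lay above control with butyrate, beside 49% of all genes. None of the 8 markers did so by 1.5-fold, and their median log2 ratio was 0.07. The log2 of their summed level was 7.74, 7.89 and 7.78 with acetate, propionate and butyrate, against 7.66 in control. Only Cd79b reached the floor, and Ms4a1, which encodes CD20, was at 3.65, 3.87 and 3.66, against 3.83 in control.

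The promoter stretch of Cxcl13, at chr5:95956689-95956938 on the plus strand, is shown because its butyrate ratio was the highest of the family.
Cxcl13: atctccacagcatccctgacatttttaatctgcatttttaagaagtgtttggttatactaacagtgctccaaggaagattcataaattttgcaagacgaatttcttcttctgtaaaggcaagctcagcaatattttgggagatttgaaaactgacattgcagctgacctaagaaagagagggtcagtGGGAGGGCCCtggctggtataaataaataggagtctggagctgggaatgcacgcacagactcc
It holds a match to the NF-kB-type letters and none to the interferon-type letters.

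Cxcl1 and Ppbp belong to the CXC ligands that attract neutrophils through Cxcr2. Cxcl1 stood at 8.36 in the acetate, 8.90 in the propionate and 8.63 in the butyrate pool, and at 7.99 in the control pool. It was above control in all 3 acid pools, by 1.29-fold, 1.87-fold and 1.55-fold, and ranked 11 among 9410 genes with propionate. Propionate gave the highest level of this gene, unlike Cxcl9 and Cxcl13, whose highest level was with butyrate.

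Ppbp, whose product is stored in platelet granules and becomes an attractant once cleaved, stood at 5.83 with acetate, 6.92 with propionate and 7.48 with butyrate, against 6.86 in control. The acetate pool was the lowest, 2.03-fold below control (log2 ratio -1.02), and ranked 7 from the bottom among 9410 genes. The butyrate pool was 1.54-fold above control, so the acid pools lay on both sides of it. Pf4, the other platelet-stored ligand, was at 4.88, 5.05 and 5.11 with acetate, propionate and butyrate, against 5.01 in control, below the floor. Of 6 platelet and megakaryocyte markers measured, 3 lay above control with acetate and all 6 with butyrate, beside 50.5% and 49% of all genes. The median log2 ratios of these markers were -0.05 and 0.16. The log2 of their summed level was 9.08, 9.27 and 9.25 with acetate, propionate and butyrate, against 9.12 in control, and among them Gp9, below the floor, had the lowest acetate ratio at -0.44.

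The promoter stretches of Cxcl1, at chr5:90890995-90891244, and Ppbp, at chr5:90768268-90768517, both on the plus strand, are set side by side because both genes lie in the same run of neighbours and differed in opposite directions in the acetate pool.
Cxcl1: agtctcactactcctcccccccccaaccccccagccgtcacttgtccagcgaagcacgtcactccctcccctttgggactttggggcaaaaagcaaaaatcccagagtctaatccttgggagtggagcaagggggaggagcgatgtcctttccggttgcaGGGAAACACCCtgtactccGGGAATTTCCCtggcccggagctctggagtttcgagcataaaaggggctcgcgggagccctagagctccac
Ppbp: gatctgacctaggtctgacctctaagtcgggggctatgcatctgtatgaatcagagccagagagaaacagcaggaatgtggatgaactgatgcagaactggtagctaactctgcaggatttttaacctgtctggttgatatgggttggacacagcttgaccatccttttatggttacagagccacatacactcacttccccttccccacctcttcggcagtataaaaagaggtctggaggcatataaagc
Cxcl1 holds 2 stretches of NF-kB-type letters, and Ppbp holds neither set of letters in this window.

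The other neutrophil attractants, Cxcl2, Cxcl3, Cxcl5 and Cxcl15, lay below the floor in all pools with ratios between -0.18 and 0.15. Their receptors also lay there. Cxcr2 was at 4.46, 4.84 and 4.73 with acetate, propionate and butyrate, against 4.65 in control, and Cxcr1 at 4.34, 4.59 and 4.67, against 4.41. Neutrophil markers also differed between the pools: 0 of 12 lay above control with acetate, 5 with propionate and 11 with butyrate. The shares of all genes measured were 50.5%, 47.8% and 49%. The median log2 ratios of the neutrophil list were -0.37, -0.13 and 0.50. The log2 of the summed level of the 12 was 12.65, 12.70 and 12.98 in the acid pools, against 12.87 in control. Lcn2, which hepatocytes also make, was the brightest and made up nearly all of this summed signal. It stood at 12.59, 12.62 and 12.81, against 12.80 in control. Without Lcn2 the log2 of the summed level of the other 11 was 8.00, 8.48 and 9.78, against 8.58 in control. Of the 12, 4 reached the floor, and the granule gene Ngp was at 4.40, 5.54 and 8.54, against 5.79 in control. Their part in the values of Cxcl1 and Ppbp was not tested.

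Ccl3, Ccl4, Ccl5, Ccl6 and Ccl9 attract monocytes, macrophages and T cells through receptors such as Ccr1. Ccl5 stood at 6.34 in the acetate, 6.83 in the propionate and 7.03 in the butyrate pool, and at 6.24 in the control pool. Propionate and butyrate were above control by 1.5-fold and 1.73-fold, and acetate by 1.07-fold. Ccl3 lay below the floor at 5.02, 5.28 and 5.23 in the acid pools, against 4.57 in control, with propionate and butyrate 1.64-fold and 1.58-fold above it.

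Ccl6 stood at 8.49, 8.42 and 8.78 with acetate, propionate and butyrate, against 8.41 in control, and only the butyrate pool stood off, by 1.29-fold. Ccl9 was at 9.11, 9.05 and 8.97, against 8.97 in control, so all pools lay within 1.2-fold of it. Ccl4, below the floor, was at 4.15, 4.23 and 3.96, against 4.18 in control. Among the receptors, Ccr1 was at 3.07, 3.31 and 3.28, against 3.38 in control, and Ccr3 at 2.96, 3.45 and 3.36, against 3.29.

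Kupffer cell markers differed beside the macrophage and interferon-induced ligands. Of 14 markers, all at or above the floor, 6 lay above control with acetate, 13 with propionate and 14 with butyrate. By at least 1.5-fold, 0, 3 and 5 of the markers did so. Of the 9410 genes at or above the floor, 46.2%, 39.2% and 48.7% lay above control, and 0.627%, 0.701% and 0.755% by at least 1.5-fold. The log2 of the summed level of the markers was 12.92, 13.20 and 13.41 in the acid pools, against 12.91 in control. Clec4f and the other defining markers were well detected in every pool, none of the 14 being below 6.20. Clec4f itself had ratios of -0.25, -0.10 and 0.09, and was the marker below control with propionate. The markers with the largest ratios were Marco, at -0.24, 0.98 and 1.40, and Adgre1, at -0.18, 0.72 and 0.76. The part of Kupffer cell markers in the ligand values was not tested.

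Cxcl16, a membrane-bound ligand made by macrophages and endothelium that binds Cxcr6 on T and NKT cells, stood at 6.54, 6.72 and 6.84 with acetate, propionate and butyrate, against 6.29 in control. All acid pools were above control without reaching 1.5-fold, the butyrate level being 1.47-fold above control. A further probe set, shared by Cxcl16 and Zmynd15 and left out of the counts, differed: its ratios were 0.01, 0.13 and -0.06, with butyrate the lowest pool. Cxcr6 was at 4.53, 4.55 and 4.55, against 4.51 in control. Cxcl9, Ccl5 and Cxcl16 were the 3 of the 14 genes whose levels were ordered control, acetate, propionate and butyrate from lowest to highest, an order seen in 3.3% of the 9410 genes. This order was picked out after the values were seen.

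Ligands with steady levels were Cxcl12, Ccl9 and Ccl25, each within 1.2-fold of control in all acid pools. Cxcl12, which retains leukocytes and progenitors through Cxcr4, stood at 9.77, 9.80 and 9.94 with acetate, propionate and butyrate, against 9.87 in control. Cxcr4 was at 5.52, 5.53 and 5.60, against 5.32 in control, and the scavenging receptor Ackr3 at 3.81, 3.73 and 3.78, against 3.77. Ccl25, which draws T cells to the small intestine through Ccr9, was at 6.56, 6.52 and 6.54, against 6.44 in control, although its 2 probe sets disagreed in sign with propionate (-0.07 and 0.25) and with butyrate (-0.03 and 0.24). Cxcl14, a ligand made by epithelia, had after Ppbp the lowest ratio to control among the 14 genes, at 6.35, 6.46 and 6.61, against 6.68 in control, and acetate stood 0.33 below control on the log2 scale.

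Ligands and receptors of monocyte entry all lay below the floor. Ccl2, the main ligand of Ccr2, was at 4.80, 5.02 and 4.75 with acetate, propionate and butyrate, against 4.40 in control, and only propionate passed 1.5-fold, at 1.53-fold. Ccr2 was at 4.55, 4.87 and 4.65, against 4.53 in control. Cx3cr1, carried by monocytes and some macrophages, was at 5.37, 5.28 and 4.77, against 4.87 in control, with acetate and propionate above and butyrate slightly below. Its ligand Cx3cl1 was at 4.90, 4.89 and 5.00, against 4.89 in control. Of these 7 genes 6 lay above control with acetate and 5 each with propionate and butyrate, beside 50.5%, 47.8% and 49% of all genes measured.

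The eosinophil attractants Ccl11, Ccl24 and Ccl26 lay below the floor with ratios between -0.40 and 0.29, the lowest being that of Ccl24 with propionate. The 17 measured ligands and receptors of T cells and barrier tissues had ratios between -0.33 and 0.55, and 0 reached 1.5-fold with any acid. Among the atypical receptors, Ackr1 was at 4.63, 4.82 and 4.76 with acetate, propionate and butyrate, against 4.85 in control, and Ackr2 at 5.44, 5.23 and 5.29, against 5.39. None of the 21 receptors stood 1.5-fold from control in any acid pool. Over all 18820 genes, 0.696%, 0.776% and 0.728% stood that far above control with acetate, propionate and butyrate. As far below stood 0.494%, 0.489% and 0.616%. At such shares, a count of 0 among 17 or 21 genes does not set them apart. The receptor ratios ran from -0.35 to 0.51 with acetate, from -0.42 to 0.58 with propionate and from -0.42 to 0.35 with butyrate. As 20 of the 21 lay below the floor on average, a difference in receptor RNA may not be visible at this signal.

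**Figure D3:**
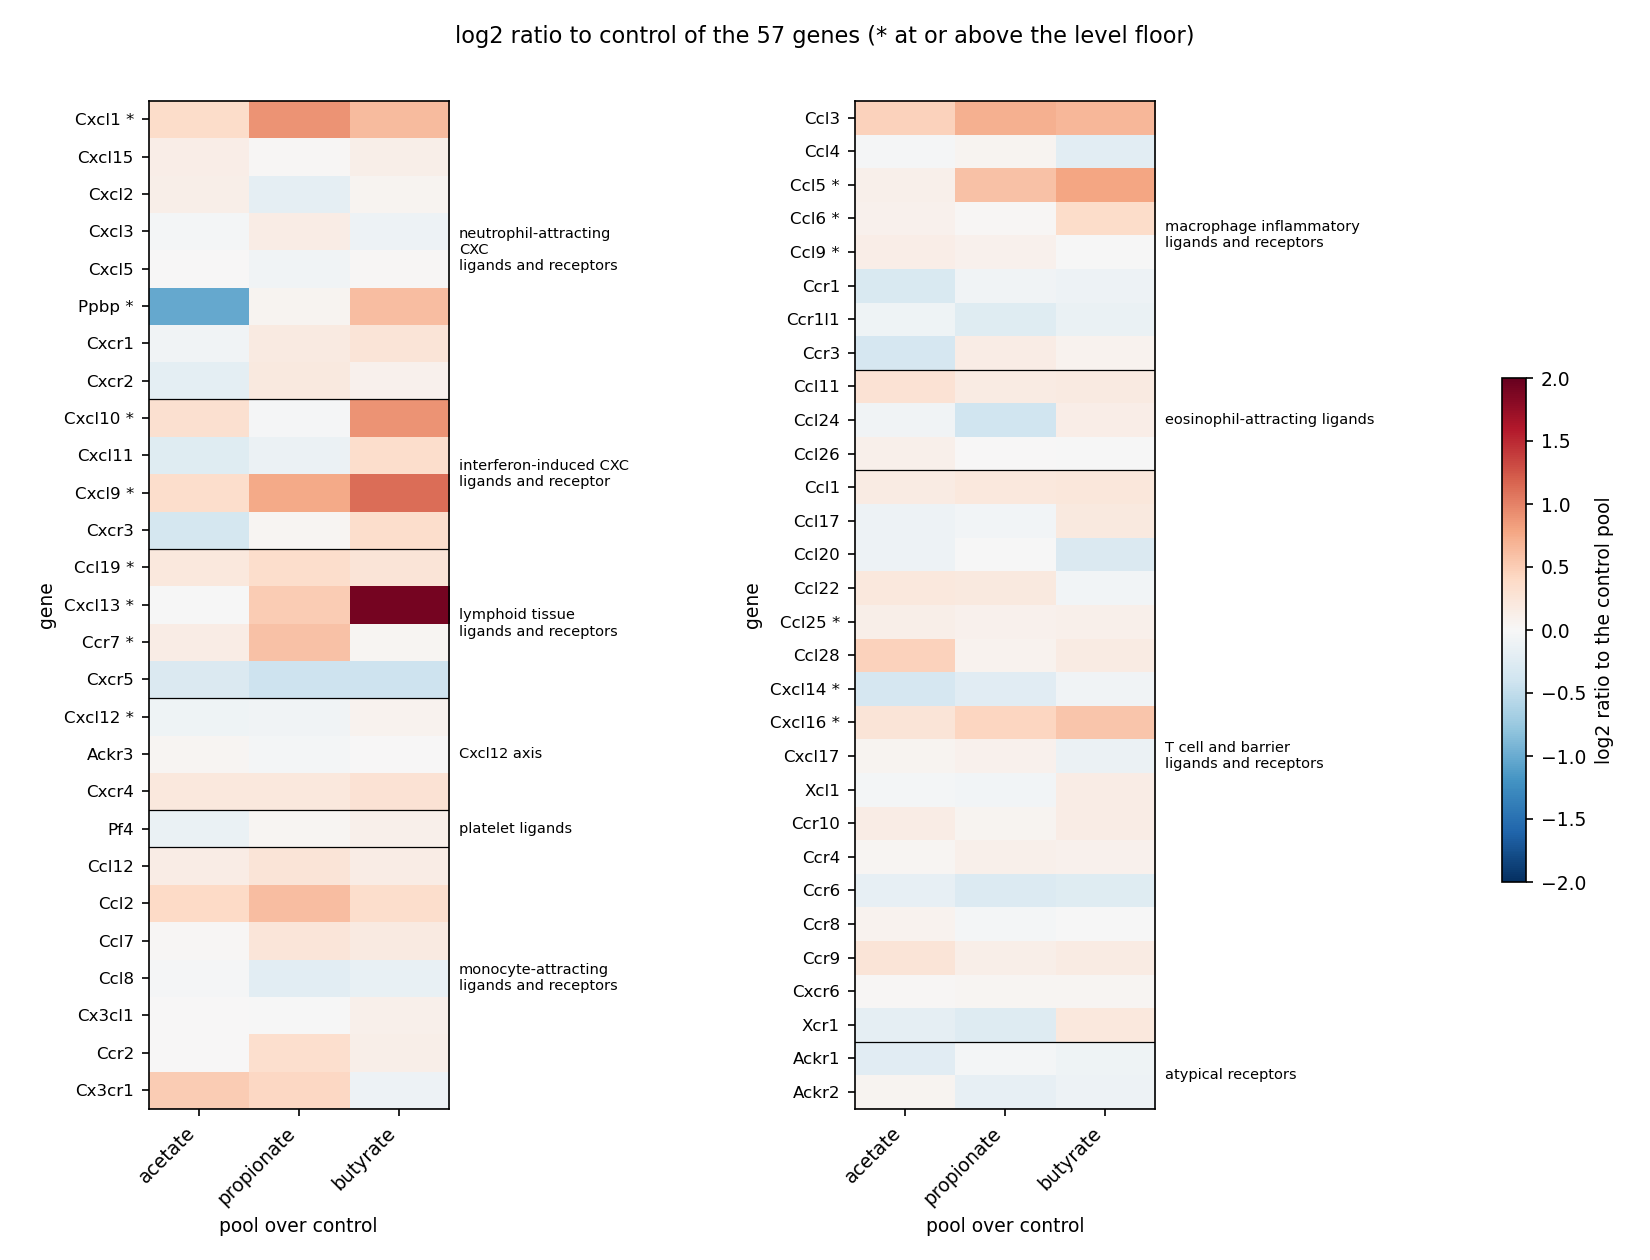
Colours give the log2 ratio to control of each of the 57 genes in the acetate, propionate and butyrate pools, with genes grouped by role and an asterisk where the mean level reached the floor. The strongest colours are those of Cxcl13 (1.92), Cxcl9 (1.11) and Cxcl10 (0.90) with butyrate and of Ppbp (-1.02) with acetate.

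Several of these genes are neighbours in the genome, and ratios differed within the runs that hold detected ligands. On chromosome 5, in the run Cxcl5, Ppbp, Pf4, Cxcl3, Cxcl15, Cxcl1 and Cxcl2, Ppbp and Cxcl1 passed 1.5-fold with at least 1 acid while the other 5 stayed within -0.18 and 0.15. In the run Cxcl9, Cxcl10 and Cxcl11 the butyrate ratios were 1.11, 0.90 and 0.35. On chromosome 11, in the run Ccl5, Ccl9, Ccl6, Ccl3 and Ccl4, the butyrate ratios were 0.79, -0.0021, 0.37, 0.66 and -0.22. The run of 7 receptor genes on chromosome 9 had butyrate ratios between -0.13 and 0.21. Gene order was taken from RefSeq and says nothing of shared control.

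**Figure D4:**
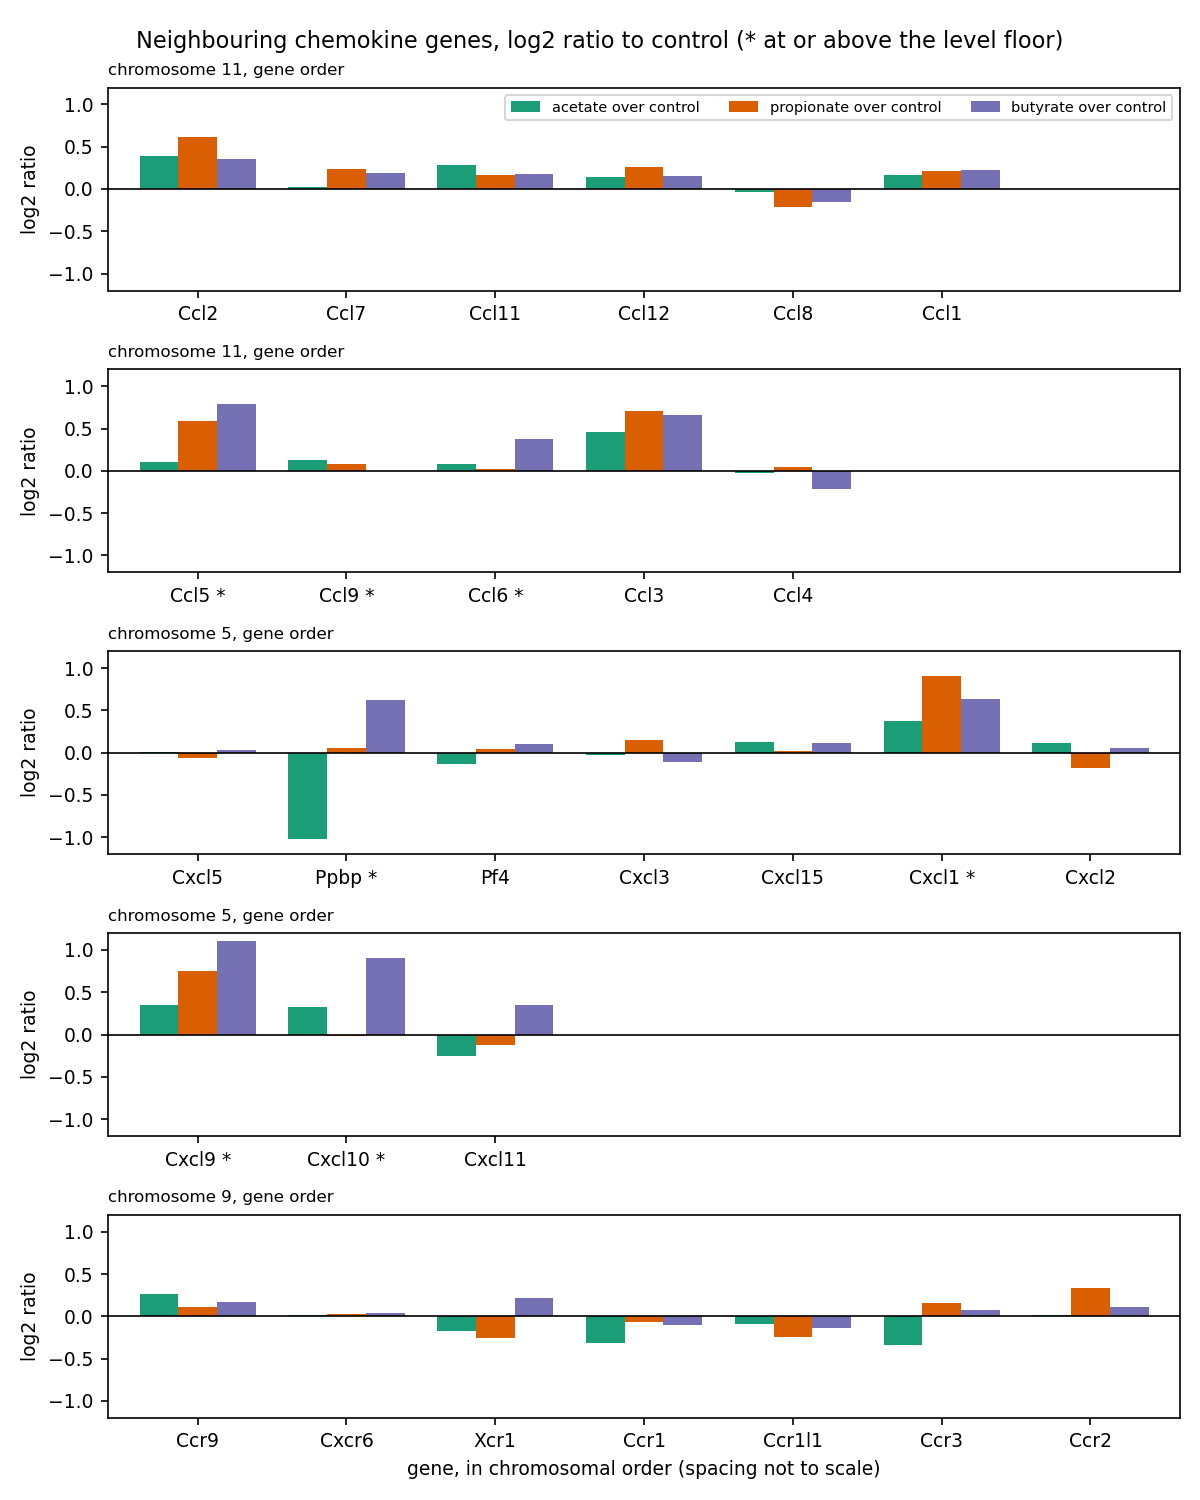
Bars give the log2 ratio to control of neighbouring genes in chromosomal order for the acetate, propionate and butyrate pools, with an asterisk where the mean level reached the floor. Ppbp and Cxcl1 are the tall bars within a run of 7 on chromosome 5, and the 7 receptor genes on chromosome 9 stay between -0.34 and 0.34.

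The acids differ in carbon chain length and were infused at equal molar rates over equal times, so their pools were also set against one another. Propionate over acetate, 1 of the 14 genes passed 1.5-fold, Ppbp at 2.12-fold, where 0.414% of all genes at or above the floor were that much higher. Butyrate over acetate, 4 passed, Cxcl13 at 3.79-fold, Ppbp at 3.13-fold, Cxcl9 at 1.69-fold and Ccl5 at 1.61-fold, where 1.05% of all such genes were that much higher. Butyrate over propionate, 2 passed, Cxcl13 at 2.67-fold and Cxcl10 at 1.89-fold, where the share was 0.351%. None of the 14 was 1.5-fold lower in any of these 3 pairs, where the shares were 0.138%, 0.85% and 0.606%. Over all 57 genes the same gene passed for propionate over acetate (0.383% of all genes higher, 0.213% lower) and the same 2 for butyrate over propionate (0.425% and 0.845%). For butyrate over acetate (0.914% and 0.956%), Cxcr3 at 1.62-fold and Cxcl11 at 1.52-fold higher and Cx3cr1 at 1.52-fold lower were added, all 3 below the floor. Cxcl1 was 1.45-fold higher with propionate than with acetate, and its butyrate over propionate log2 ratio was -0.27. No interval can be given for these differences, and a ratio under the threshold does not show that acids act alike.

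Genes that act around chemokines were followed through lists of the pathway. The list counts take in all measured genes, also those below the floor. Of all 18820 genes, 0.696%, 0.776% and 0.728% stood at least 1.5-fold above control with acetate, propionate and butyrate. As far below stood 0.494%, 0.489% and 0.616%. Of 13 adhesion molecules of leukocyte entry, 9 lay above control with acetate, 12 with propionate and 11 with butyrate, and 0, 2 and 3 by at least 1.5-fold. By any amount, 50.5%, 47.8% and 49% of all genes lay above control. Madcam1, among the 3 with butyrate, lay below the floor. Vcam1, an endothelial ligand of leukocyte integrins, was at 8.26, 8.52 and 8.86 with acetate, propionate and butyrate, against 8.22 in control. The leukocyte integrin genes Itgam, Itgal and Itgb2 had butyrate ratios of 0.69, 0.56 and 0.49 and propionate ratios of 0.50, 0.63 and 0.62. The list median was 0.04, 0.28 and 0.28 in the acid pools.

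Of 22 genes that signal below the receptors, 1, 4 and 1 were at least 1.5-fold above control with acetate, propionate and butyrate, and 0 below. The shares of all genes are those given before the adhesion list. Pik3cg, among the 4 with propionate, lay below the floor. Rac2, a GTPase of leukocyte movement, was at 6.94, 7.62 and 7.63, against 6.92 in control. Rgs2, which damps G protein signals, had log2 ratios of 0.80, 0.72 and 0.40, Pik3r5 of 0.09, 0.69 and 0.47 and Elmo1 of -0.18, 0.49 and 0.23. Of 19 cytokines and regulators that induce chemokines, 10, 14 and 10 lay above control with acetate, propionate and butyrate, where 10 of 19 is close to the 50.5% and 49% of all genes with acetate and butyrate and the propionate share was 47.8%. Tnf alone reached 1.5-fold, with propionate, at 4.07, 4.93 and 4.10, against 4.12 in control, below the floor. The NF-kB feedback gene Tnfaip3 had ratios of 0.11, 0.33 and 0.43, Nfkbiz of -0.05, 0.42 and 0.06, Il1a of 0.18, 0.18 and 0.36, and Nfkb2 of 0.34, 0.33 and 0.30.

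Of 13 genes that process or display chemokines, 2 were at least 1.5-fold above control with acetate, 2 with propionate and 1 with butyrate, and 2 were below with acetate. The shares of all genes are again those given before the adhesion list. Among the genes so counted, Mmp2 alone lay at or above the floor. Mmp2, a protease that can trim chemokines, was at 7.25, 6.84 and 6.10 with acetate, propionate and butyrate, against 6.21 in control. The syndecan gene Sdc3 had ratios of -0.19, 0.14 and 0.28, and Dpp4, whose peptidase removes the end of several chemokines, of -0.03, -0.15 and -0.07. Furin, a gene for a protein-cleaving enzyme, had ratios of -0.15, -0.15 and -0.02. Of the 5 measured relatives outside the naming rule, 0 reached 1.5-fold, and Cd74, the receptor chain of Mif, had ratios of 0.25, 0.44 and 0.46.

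The tissue and the pools were checked against markers. The 9 hepatocyte markers measured differed from control by at most 0.16 on the log2 scale, with a mean level of 12.88, 12.89 and 12.88 with acetate, propionate and butyrate, against 12.88 in control. In muscle, intestinal and red cell markers the butyrate pool stood apart. All 10 skeletal muscle markers, each at or above the floor, were at least 1.5-fold below control there, beside 0.361% of the 9410 genes at or above it. Of 9 intestinal epithelium markers, 3 were at least 1.5-fold above, beside 0.728% of all genes. They were Muc2 (2.98), Lypd8 (2.97) and, below the floor, Clca1 (2.29). Each of these log2 ratios was above that of every chemokine gene, and that of Muc2 was the highest of all genes. The other intestinal markers had ratios from -0.02 (Cdx1) to 0.37 (Cdx2). The part of these tissues in the chemokine values was not tested. The T and NK cell list had medians of -0.03, 0.09 and 0.13, with 1 of 12 markers at or above the floor, and the dendritic cell list 0.14, 0.05 and 0.05, with 1 of 7. Monocyte markers had medians of -0.09, 0.03 and 0.26, liver endothelium 0.01, 0.00 and 0.09, and stellate cells and fibroblasts 0.22, 0.16 and 0.11. Cholangiocytes had 0.14, -0.20 and 0.25, red cells -0.14, 0.13 and 0.74, mesothelium 0.13, 0.11 and 0.02, adipocytes 0.09, -0.22 and -0.37, and pancreatic acini -0.85, -0.61 and -0.30. The control pool, the shared denominator, also stood apart: each of the 7 pancreatic acinar markers measured was highest there. The log2 of the summed acinar level was 12.48, 12.64 and 12.89 with acetate, propionate and butyrate, against 13.22 in control. The part of pancreatic tissue in the chemokine ratios was not tested. Among 1155 olfactory and vomeronasal receptor genes, which liver does not use, the SD of the ratios over genes was 0.16, 0.18 and 0.17, and 5, 8 and 6 genes passed 1.5-fold.

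**Figure D5:**
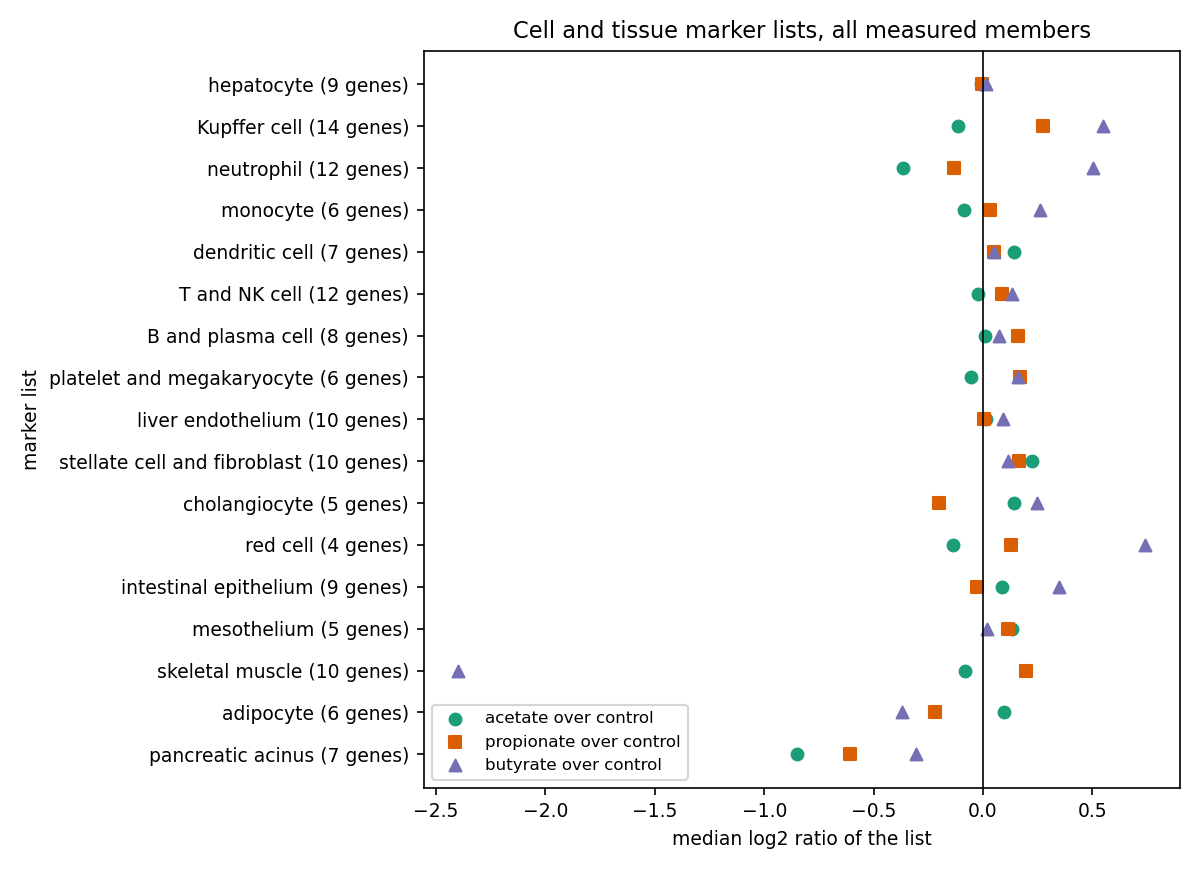
Points give the median log2 ratio to control of each marker list in the acetate, propionate and butyrate pools, over all its measured genes. Kupffer cell and neutrophil lists lie above 0 with butyrate (0.55 and 0.50) and below 0 with acetate (-0.11 and -0.37), and skeletal muscle lies at -2.40 with butyrate. The red cell list lies highest with butyrate, and the pancreatic acinus list lies lowest with acetate.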

How the data were processed

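Liver RNA pools of 4 infusion groups were hybridised to 1 biotin-labelled whole-transcript array each. The authors deposited log2 expression values per probe set, made with RMA per the submitters' processing notes. The sources used here give neither its version nor a genome build. Array medians lay between 5.11 and 5.12. Of 35556 probe sets, 21218 had 1 symbol in GEO's platform annotation, 1881 several and 12457 none. Those with 1 symbol were averaged per symbol to 18820 genes. Log2 ratios of arrays were computed in Python 3.11.15 with pandas 2.3.3, and cyclic loess in limma 3.58.1. The number of arrays limits the precision.

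Genes named were those 1.5-fold from control in any acid pool, the 10 ligands and 6 receptors with the highest mean signal (used only to choose names), the listed partners, 4 genes per pathway list and up to 3 per marker list; Tnf, Mmp12 and the members outside this rule were named after their values were seen. The members and lists were chosen with earlier results of these data known. Alternatives were the floor, the fold, the probe set rule, the normalization and the denominator. Promoter sequences were taken from RefSeq (GRCm38.p6). Probe sets with several symbols were left out of the counts.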

Additional observations from a re-analysis of the deposited data

Results flagged for a closer look

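Ppbp was the single member past 1.5-fold in opposite directions in 2 acid pools, with log2 ratios of -1.02 with acetate and 0.62 with butyrate over the shared control pool. The difference between the acids was not tested, since each pool is 1 array.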

How the results depend on the processing

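Of 60 recomputed counts and medians, 49 stayed close to the reported value. No paired analysis was possible because each group is 1 array and the labels carry no replicate numbers. With no level floor, 5 genes were higher with propionate and the butyrate median was 0.11. With the floor at the 75th percentile, 6 genes were left, of which 0 were lower with acetate and 3 higher with butyrate. At 1.3-fold, 6 genes were higher with propionate. Against the mean of the other 3 pools, 2 genes were lower with acetate, 0 were higher with propionate, 4 were higher with butyrate, and the medians were -0.085 with acetate and 0.27 with butyrate. With the butyrate pool left out of the denominator, an alternative chosen after seeing the data, 1 gene was higher with propionate and the acetate median was -0.041. The cause was not tested. Of 88 recomputed ratios of the 8 genes past 1.5-fold, 31 moved by more than the spread across unused receptor genes, all under a changed denominator: 21 of 24 with the other 3 pools as denominator, 6 of 8 for acetate and 4 of 8 for propionate with butyrate left out, and 0 of 24 each under cyclic loess and the brightest probe set. Of the 13 ratios past 1.5-fold, 8 were no longer so against the mean of the other 3 pools (Ccl2, Ccl3, Ccl5, Cxcl1 and Cxcl9 with propionate and Ccl3, Ccl5 and Cxcl1 with butyrate), 4 of 5 for propionate with butyrate left out (all but Cxcl1), and 1 under cyclic loess (Ccl2, at 0.58). None of the 13 changed sign. Genes below the floor have weaker signals, and their background was not measured.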

Other observations

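Probe sets that hold a chemokine gene beside other symbols entered no count. The 4 probe sets of Ccl21a, Ccl21b, Ccl21c and Gm1987, ligands of Ccr7 or their close copies, gave the same values of 6.72, 6.64 and 6.27 with acetate, propionate and butyrate, against 6.43 in control. The probe set of Ackr4 and Acad11 was at 5.52, 5.59 and 5.50, against 5.41 in control. Probe sets of Ccl27a and its copies had ratios between -0.13 and 0.04, and the probe set shared by Cxcl16 and Zmynd15 had ratios of 0.01, 0.13 and -0.06. Mmp12, a macrophage protease that can cleave chemokines, was at 6.02, 5.54 and 3.89 with acetate, propionate and butyrate, against 4.02 in control, with a mean over the pools below the floor. It was picked out after its values were seen.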
